A study of Mus musculus with 2 samples.

Results

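The cell cycle and DNA replication genes are a module of 43 mouse genes, chosen by symbol from the deposited table of 26037 genes. All 43 symbols were found in the table. For the comparison they were divided by role into 5 cyclins and inhibitors of G1, 16 genes of the G1/S transition and of replication, 20 genes of G2 and mitosis, and 2 other genes linked to proliferation. Cells entered the study as bone marrow of C57BL/6 mice aged 6 to 8 weeks. The marrow was grown with 10% serum and M-CSF, a growth factor of macrophages, at 5 ng/ml. Non-adherent cells then had 30 ng/ml M-CSF for 3 days, and adherent macrophages were given RANKL, the cytokine that drives osteoclast formation, for 3 days. The MMP9_KO group is 1 library and the control group is 1 library, both of RANKL-treated cells labelled as primary osteoclasts. The headings of the 2 columns add "sh" for the MMP9_KO library and "NCsh" for the control library, and the sources used here do not explain them. Whether the gene was deleted or silenced is therefore not known, and the number of mice or cultures behind each library was not found in the sources used here.

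Progress through the cell cycle is driven by cyclin-dependent kinases. D-type cyclins act in G1, cyclin E and the E2F factors switch on genes for DNA synthesis at the G1/S transition, and cyclins A and B with CDK1 carry cells through G2 into mitosis. Replication origins are licensed in G1, when ORC, CDC6 and CDT1 load the MCM helicase. Genes of the G1/S wave and genes of the G2/M wave are transcribed at different times, so their transcript levels are widely used as marks of cells in S phase and in mitosis. Osteoclast precursors proliferate in M-CSF, and the mature multinucleated osteoclast is a postmitotic cell.

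The values were treated as reads per gene times a constant for each library, and are called normalised read counts or levels. The MMP9_KO library held 17741432 reads in genes and the control library 20678441. Folds below are ratios of levels with an exact 95% interval for counting error, which treats reads as independent molecules and holds no variation between cultures. With 1 library per group there was no replicate check and no test between genotypes. Mmp9 itself was at 3.87 in the MMP9_KO library and 139.4 in the control library, the direction its label gives. Mmp9 is also 1 of the 12 osteoclast markers that follow. Its low level therefore cannot check the label apart from the lower level of osteoclast markers as a group. Of 12 osteoclast markers 11 were lower by at least 2-fold in the MMP9_KO library, and their summed level was 1011 there and 7529 in the control library. Of 8 compared macrophage markers 5 were higher and 1 was lower by at least 2-fold, with summed levels over 10 markers of 1429 in the MMP9_KO library and 1061 in the control library. Over all compared genes 4% were higher and 9.58% were lower. Genes were compared at a mean level of at least 1. Oscar, Itgb3 and Calcr reached it only through the control library and Fcgr1 only through the MMP9_KO library. The direction of these calls was fixed by that filter. The cell cycle values below therefore stand beside a different balance of osteoclast and macrophage transcripts, and the part of that balance in them was not tested. In bulk RNA, a different number of cycling cells and a different amount of cell cycle RNA per cell cannot be told apart. Markers of granulocytes and progenitors summed to 0.404 in the MMP9_KO library, with 10 of 12 at 0, and to 0.0745 in the control library, with 11 of 12 at 0, and Mpo and Elane were at 0 in both. Stromal markers summed to 0.950 in the MMP9_KO library, with 6 of 10 at 0, and to 1.24 in the control library, with 7 of 10 at 0, and Col1a1 was at 0 in both. Erythroid and megakaryocyte markers summed to 0.190 in the MMP9_KO library and 0.248 in the control library, with 5 of 9 at 0 in each library. Lymphoid markers summed to 0.261 in the MMP9_KO library and 0.0497 in the control library, with 6 of 8 at 0 in each.

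Cell cycle genes were on the whole slightly higher in the MMP9_KO library, and genes of the G1/S wave more so than genes of G2 and mitosis. On log2 ratios with a pseudocount of 1, 3 of 43 members were at least 2-fold higher, 0 were at least 2-fold lower and 40 lay within 2-fold. Over all 11126 genes with a mean level of at least 1, 4% were higher and 9.58% were lower by at least 2-fold, 13.6% together. The 3 higher members were Ccnd2, Rrm2 and Ccne1, of which Ccne1 was within 2-fold with a pseudocount of 5. The median log2 ratio was 0.16 over the 43 members and -0.16 over all compared genes. Of the members 29 had a ratio above 0, against 37.3% of all compared genes, and 33 lay above the median of all genes. The 43 genes took 0.703% of the reads in the MMP9_KO library and 0.494% in the control library. All 43 passed the filter on low levels, and 42 had a level of at least 1 in both libraries. Ccnd2 passed only through the MMP9_KO library.

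**Figure D1:**
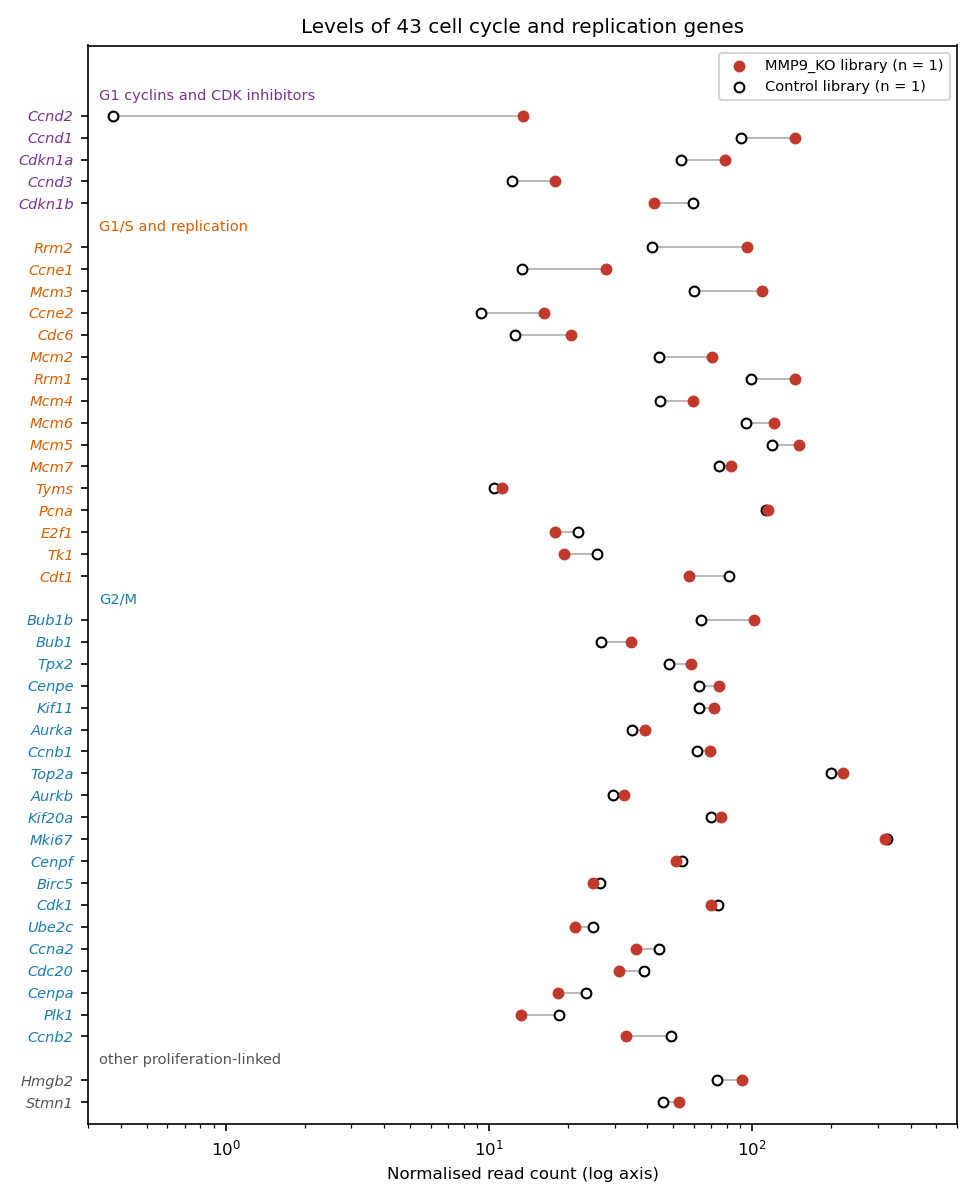
Level of each of the 43 genes as a normalised read count on a log axis, with a filled point for the MMP9_KO library and an open point for the control library (n = 1 each), grouped by role and ordered by log2 ratio. Most G1/S points of the MMP9_KO library lie to the right of the control points, G2/M pairs lie close together with 10 pairs in each direction, and Ccnd2 has the widest gap, at 13.5 in the MMP9_KO library and 0.373 in the control library.

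Among the 16 G1/S and replication genes, 13 had a higher level in the MMP9_KO library and 3 a lower level, with a median log2 ratio of 0.38. The 20 G2/M genes were split evenly, 10 higher and 10 lower, around a median of 0.05. The difference between these medians was 0.32. Counting error alone left 11 of the 16 G1/S genes with an interval above 1 and 3 with an interval below 1, and 10 of the 20 G2/M genes with an interval above 1 and 7 with an interval below 1. Such intervals narrow as reads increase, and the same counts over all compared genes were not made. They are therefore not shown to be particular to the members. Among 68 other G1/S and replication genes 45 had an interval above 1 and 10 below, and among 82 other G2/M genes 41 and 20. The groups overlapped: 5 G1/S genes lay above the highest G2/M gene, and 1 G2/M gene lay below the lowest G1/S gene. Summed over genes, the G1/S level was 1120 in the MMP9_KO library and 865 in the control library, 1.29-fold higher (1.28 to 1.31). The summed G2/M level was 1400 in the MMP9_KO library and 1338 in the control library, 1.05-fold higher (1.03 to 1.06). The G1/S sum was thus 0.800 of the G2/M sum in the MMP9_KO library and 0.647 in the control library. Levels in these sums are not divided by transcript length. Mki67 and Top2a together held 542.6 of the G2/M sum in the MMP9_KO library and 524.6 in the control library, so these 2 genes weigh heavily in it. The authors' scaling touches the position of both groups but hardly the distance between them. Setting the median of all genes to 0 shifts each log2 ratio by 0.16, and then 14 of the 20 G2/M genes lie above 0 and 6 below. With equal summed levels these counts are 15 and 5.

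**Figure D2:**
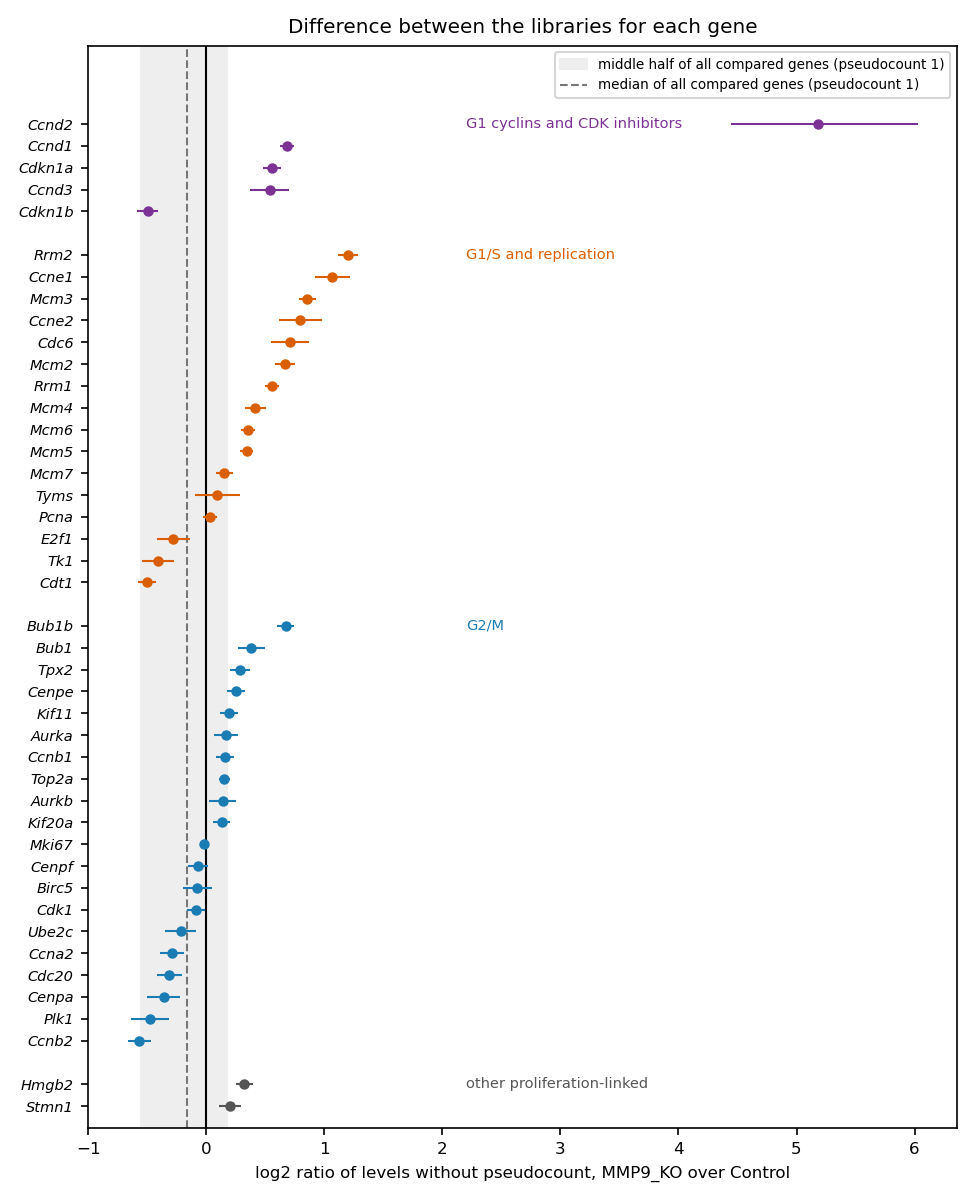
log2 ratio of levels without a pseudocount, MMP9_KO over control, for each gene, with bars for the exact 95% interval of counting error. The dashed line is the median of all compared genes (-0.16) and the band their interquartile range, both with a pseudocount of 1. G1/S genes run to higher ratios, up to Rrm2, than the G2/M genes, of which Bub1b is highest and Ccnb2 lowest.

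The promoters of these groups carry short motifs in different shares, and some promoters are shown here. The motifs searched were chosen because they are known from genes of these phases. A difference between the groups was therefore likely beforehand, and it does not bear on the comparison of the libraries. RefSeq promoters on GRCm38.p6 were available for 34 members and were searched from 220 bases before to 30 bases after the start. For E2f1, Cdc6 and Mcm7 every searched window lies inside the gene as GENCODE M21 annotates it, so the outermost start was not searched. These genes stay in the counts below, Cdc6 and Mcm7 with E2F letters and E2f1 without. Both strands were searched, and each match was counted even where matches overlap. The letters were those of an E2F-type site (TTTGGCGC, TTTGCCGC, TTTCGCGC or TTTCCCGC), a CHR-type element (TTTGAA or TTCGAA) and CCAAT. CHR elements are known from mitotic promoters and are bound by MuvB complexes, and CCAAT boxes are bound by NF-Y. The E2F letters were in 5 of 14 G1/S promoters and in 1 of 16 G2/M promoters, against 2.31% of all 27025 genes with a promoter and 4.40% of the 7585 compared genes with one. The CHR letters were in 2 of 14 G1/S promoters and 11 of 16 G2/M promoters, against 18.5% of all and 13.9% of the compared genes. CCAAT was in 8 of 14 G1/S promoters and 15 of 16 G2/M promoters, against 37.01% of all and 40.8% of the compared genes. Among G1/S genes, Mcm6 carries 3 E2F matches and Mcm3 carries 1, and Rrm2, the member of this group with the highest ratio, carries none in this window. Among G2/M genes, Cdc20 and Ccnb2 carry CHR letters near the start, and Ccnb2 carries another match far upstream. Bub1b, the gene of this group with the highest ratio, carries them far upstream only. Bub1 and Kif11, which were also higher in the MMP9_KO library, carry them near the start. Whether the place of these letters goes with the ratio was not tested. Members not matched were Ccnd1, Ccnd2, Ccne2, Mcm4, Ccna2, Aurkb, Kif20a, Tpx2 and Stmn1. The sequences run 5′ to 3′ in the direction of the gene, and capitals mark the matches.
Rrm2 promoter (chr12:24708034-24708283, plus strand): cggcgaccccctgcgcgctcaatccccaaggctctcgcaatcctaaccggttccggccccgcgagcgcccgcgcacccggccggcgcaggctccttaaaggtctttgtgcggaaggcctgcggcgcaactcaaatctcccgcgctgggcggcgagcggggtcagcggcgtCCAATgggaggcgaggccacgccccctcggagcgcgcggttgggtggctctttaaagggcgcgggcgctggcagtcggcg
Mcm3 promoter (chr1:20820283-20820532, minus strand): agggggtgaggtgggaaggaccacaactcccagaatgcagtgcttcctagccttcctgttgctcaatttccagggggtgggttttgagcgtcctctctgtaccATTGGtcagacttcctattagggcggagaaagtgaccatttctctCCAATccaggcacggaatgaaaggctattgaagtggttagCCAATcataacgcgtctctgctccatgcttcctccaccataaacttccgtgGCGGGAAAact
Mcm6 promoter (chr1:128359676-128359925, minus strand): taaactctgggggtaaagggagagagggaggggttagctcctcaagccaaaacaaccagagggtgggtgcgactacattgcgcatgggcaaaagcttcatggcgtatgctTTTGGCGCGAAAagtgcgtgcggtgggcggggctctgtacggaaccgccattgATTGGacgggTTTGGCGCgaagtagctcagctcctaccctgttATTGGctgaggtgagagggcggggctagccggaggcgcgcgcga
Bub1b promoter (chr2:118597991-118598240, plus strand): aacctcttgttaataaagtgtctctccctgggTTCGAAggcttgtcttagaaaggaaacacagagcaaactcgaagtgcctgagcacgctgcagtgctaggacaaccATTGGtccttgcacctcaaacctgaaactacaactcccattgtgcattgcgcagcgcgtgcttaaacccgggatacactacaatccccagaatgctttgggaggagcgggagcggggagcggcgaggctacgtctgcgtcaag
Cdc20 promoter (chr4:118437314-118437563, minus strand): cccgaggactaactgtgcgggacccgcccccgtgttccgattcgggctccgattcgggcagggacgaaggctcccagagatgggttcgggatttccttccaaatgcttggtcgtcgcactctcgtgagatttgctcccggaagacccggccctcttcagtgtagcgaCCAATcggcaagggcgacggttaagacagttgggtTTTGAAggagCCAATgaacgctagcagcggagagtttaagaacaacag
Ccnb2 promoter (chr9:70421525-70421774, minus strand): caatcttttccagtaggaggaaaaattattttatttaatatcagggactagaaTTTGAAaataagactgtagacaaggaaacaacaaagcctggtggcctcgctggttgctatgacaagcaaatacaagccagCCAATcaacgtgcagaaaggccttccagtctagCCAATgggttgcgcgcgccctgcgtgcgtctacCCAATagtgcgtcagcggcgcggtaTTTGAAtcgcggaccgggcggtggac

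The G1 regulators held the largest difference of the module. Ccnd2, which encodes the D-type cyclin D2, was at 13.5 in the MMP9_KO library, on 568 reads, and 0.373 in the control library, on 15 reads. It was 36.2-fold higher (21.8 to 65.1) and its log2 ratio of 3.40 was the 39th highest of the 11126 compared genes. With so few control reads that ratio depended on the pseudocount, at 4.85 with a pseudocount of 0.1 and 1.78 with a pseudocount of 5. The other D-type cyclins were higher by less than 2-fold. Ccnd1 was at 145.7 in the MMP9_KO library and 90.6 in the control library (1.61-fold higher, 1.54 to 1.68). Ccnd3 was at 17.8 in the MMP9_KO library and 12.3 in the control library (1.45-fold higher, 1.29 to 1.63). Per kilobase of the longest annotated transcript Ccnd1 was the most abundant D-type cyclin in both libraries, at 38.95 in the MMP9_KO library and 24.2 in the control library, and Ccnd2 was the least abundant of all 43 genes, at 2.13 in the MMP9_KO library and 0.0589 in the control library. The CDK inhibitors went opposite ways. Cdkn1a, which encodes p21, a target of p53, was at 78.6 in the MMP9_KO library and 53.4 in the control library (1.47-fold higher, 1.39 to 1.55). Cdkn1b, which encodes p27, an inhibitor that builds up in resting cells, was at 42.3 in the MMP9_KO library and 59.7 in the control library (1.41-fold lower, 1.33 to 1.50). The lower value of Cdkn1b held its sign in each of the 11 processing alternatives, as did the higher values of the other 4. The filters and pseudocounts among these alternatives could not change a sign.

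The cyclin E genes, whose products activate CDK2 at the G1/S transition, were both higher. Ccne1 was at 27.9 in the MMP9_KO library and 13.3 in the control library, 2.10-fold higher (1.89 to 2.33), with a log2 ratio of 1.01 just past the 2-fold limit. A pseudocount of 5 gave it a log2 ratio of 0.85, and it was past 2-fold in 10 of the 11 processing alternatives. Ccne2 was at 16.2 in the MMP9_KO library and 9.34 in the control library, 1.74-fold higher (1.53 to 1.97), and was past 2-fold with equal summed levels, which was 1 of the 11 alternatives. E2f1, an activator of both genes and of replication genes, was at 17.9 in the MMP9_KO library and 21.7 in the control library (1.21-fold lower, 1.10 to 1.34). The lower E2f1 level was not kept under all processing: its log2 ratio of -0.26 became 0.01 with equal summed levels and 0.18 after centring by GC content.

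The 6 MCM genes encode the ring of the replicative helicase, and each was higher in the MMP9_KO library. Mcm3 was at 108.8 in the MMP9_KO library and 60.1 in the control library, 1.81-fold higher (1.72 to 1.90). Its log2 ratio of 0.85 was within 2-fold as deposited and past 2-fold in 6 of the 11 alternatives, where it reached 1.14 after centring by GC content. Mcm2 was at 70.4 in the MMP9_KO library and 44.4 in the control library, 1.59-fold higher (1.50 to 1.68). Mcm4, Mcm6 and Mcm5 were 1.33-fold, 1.28-fold and 1.27-fold higher. Mcm7 differed least, at 83.2 in the MMP9_KO library and 74.8 in the control library (1.11-fold higher, 1.06 to 1.17). The subunits act as 1 complex, yet their folds differed beyond counting error, since the interval of Mcm3 lies above those of the other 5. The loaders of the helicase differed in direction. Cdc6 was at 20.5 in the MMP9_KO library and 12.5 in the control library (1.64-fold higher, 1.47 to 1.83). Cdt1 was at 57.6 in the MMP9_KO library and 81.7 in the control library (1.42-fold lower, 1.35 to 1.50), the lowest log2 ratio of the G1/S group at -0.50.

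Genes for nucleotide supply and the sliding clamp were less uniform. Rrm2, the regulated small subunit of ribonucleotide reductase, was at 95.8 in the MMP9_KO library and 41.6 in the control library. It was 2.30-fold higher (2.17 to 2.44). Rrm1, the large subunit of the same enzyme, was at 145.3 in the MMP9_KO library and 98.9 in the control library (1.47-fold higher, 1.41 to 1.53). Per kilobase of transcript the level of Rrm2 was 43.7 in the MMP9_KO library and 18.98 in the control library, and that of Rrm1 was 26.5 in the MMP9_KO library and 18.1 in the control library. The subunit levels were thus closer to each other in the control library. Pcna, the clamp that holds DNA polymerase on its template, was at 114.998 in the MMP9_KO library and 112.7 in the control library, a fold of 1.02 (0.980 to 1.06). Tyms, which makes thymidylate, was at 11.2 in the MMP9_KO library and 10.5 in the control library, a fold of 1.07 (0.934 to 1.22). For both genes the interval includes 1. Tk1, the thymidine kinase of the salvage pathway, was at 19.3 in the MMP9_KO library and 25.7 in the control library (1.33-fold lower, 1.21 to 1.46).

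On the deposited scale the cyclins of G2 and mitosis and their kinase were lower, with Ccnb1 as the exception. Their median log2 ratio was -0.19, near the -0.16 of all compared genes, and 2 of the 4 genes lay above the latter. A ratio above 0 was found in 1 of these 4 genes and in 37.3% of all compared genes. Ccnb2 was at 33.3 in the MMP9_KO library and 49.2 in the control library (1.48-fold lower, 1.38 to 1.59), the lowest log2 ratio of all 43 genes at -0.55. Ccna2, cyclin A of S phase and G2, was at 36.1 in the MMP9_KO library and 44.1 in the control library (1.22-fold lower, 1.14 to 1.31). Ccnb1, in contrast, was at 69.01 in the MMP9_KO library and 61.8 in the control library (1.12-fold higher, 1.06 to 1.18), so the cyclin B genes lay on opposite sides of 0. Cdk1, the kinase they activate, was at 69.5 in the MMP9_KO library and 73.9 in the control library (1.06-fold lower, 1.01 to 1.12). The activator and the ubiquitin-conjugating enzyme of the anaphase-promoting complex, which ends mitosis, were both lower. Their median log2 ratio was -0.26, against -0.16 over all compared genes. Cdc20 was at 31.3 in the MMP9_KO library and 38.9 in the control library (1.24-fold lower, 1.15 to 1.34). Ube2c was at 21.3 in the MMP9_KO library and 24.8 in the control library (1.16-fold lower, 1.06 to 1.27). After centring by GC content the log2 ratios of Cdc20 and Ube2c, -0.31 and -0.21 as deposited, were 0.07 and 0.17. The ratio of Cdk1, -0.09, turned positive with the median of all genes at 0.

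On the deposited scale Bub1b and Bub1 had the highest log2 ratios of the 20 G2/M members, at 0.67 and 0.37. Bub1b, which encodes the checkpoint kinase-like protein BUBR1, was at 101.6 in the MMP9_KO library and 63.7 in the control library (1.60-fold higher, 1.52 to 1.68). Bub1, its partner at the kinetochore, was at 34.8 in the MMP9_KO library and 26.7 in the control library (1.30-fold higher, 1.20 to 1.41). After centring by GC content Bub1b was at 0.88. Bub1, at 0.28, then lay below Tpx2 at 0.45, Aurkb at 0.43, Aurka at 0.37 and Kif20a at 0.30. The mitotic kinase genes differed in direction. Aurka and Aurkb were 1.12-fold (1.05 to 1.21) and 1.10-fold (1.02 to 1.19) higher, at 39.1 and 32.4 in the MMP9_KO library and 34.9 and 29.5 in the control library. Plk1, which drives entry into mitosis and its exit, was at 13.2 in the MMP9_KO library and 18.4 in the control library (1.40-fold lower, 1.25 to 1.56). Birc5, which encodes survivin, the partner of Aurora B, was at 24.9 in the MMP9_KO library and 26.3 in the control library, and its interval includes 1.

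Among motors and kinetochore genes 4 of 6 were higher. Tpx2, an activator of Aurora A on the spindle, was 1.22-fold higher (1.15 to 1.29), Cenpe, a kinetochore motor, 1.19-fold (1.13 to 1.25), Kif11, which separates spindle poles, 1.14-fold (1.08 to 1.20), and Kif20a, a motor of cytokinesis, 1.09-fold (1.04 to 1.15). Cenpa, the histone H3 variant of centromeres, was at 18.2 in the MMP9_KO library and 23.4 in the control library (1.28-fold lower, 1.17 to 1.42). Cenpf, a large kinetochore protein, was at 51.4 in the MMP9_KO library and 53.97 in the control library, with an interval that includes 1. The abundant proliferation marks were close to equal. Mki67, the Ki-67 antigen, was at 320.7 in the MMP9_KO library and 325.1 in the control library, a fold of 0.986 (0.963 to 1.01). Top2a, the topoisomerase that untangles chromosomes, was at 221.9 in the MMP9_KO library and 199.5 in the control library (1.11-fold higher, 1.08 to 1.15). Of the other 2 genes, Hmgb2, a chromatin protein, was 1.25-fold higher (1.19 to 1.31) at 91.8 in the MMP9_KO library and 73.4 in the control library. Stmn1, which destabilises microtubules, was 1.15-fold higher (1.08 to 1.22) at 52.7 in the MMP9_KO library and 45.8 in the control library. Signs of Mki67, Cdk1, Cdc20, Birc5, Cenpf and Ube2c differed between processing alternatives, and the other 14 mitotic genes kept theirs, where filters and pseudocounts could not change a sign.

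Other genes of the same pathways showed the same order of the group medians, with a smaller gap. By sign these 2 lists hardly differed. A ratio above 0 was found in 72.1% of the other G1/S genes and 68.3% of the other G2/M genes. Among the members these shares were 81.25% and 50%. Of 68 other G1/S and replication genes, 49 had a ratio above 0, with a median of 0.33, 1 was at least 2-fold higher and 0 were at least 2-fold lower. This was E2f2, an activator E2F, at 7.34 in the MMP9_KO library and 2.93 in the control library (2.50-fold higher, 2.02 to 3.12). Next to it were Brip1, a helicase of DNA repair, at 17.2 in the MMP9_KO library and 8.30 in the control library, and Orc1, the origin subunit, at 12.99 in the MMP9_KO library and 6.21 in the control library. Hells, a chromatin remodeller, was at 69.3 in the MMP9_KO library and 35.3 in the control library. On the pseudocount scale these 3 fell just short of 2-fold, although Brip1 and Orc1 were 2.08-fold (1.82 to 2.37) and 2.09-fold (1.80 to 2.44) higher without it. Of 82 other G2/M genes, 56 had a ratio above 0, with a median of 0.13, 0 were at least 2-fold higher and 1 was at least 2-fold lower. The lower gene was Wee1, whose kinase restrains CDK1, at 4.68 in the MMP9_KO library and 11.8 in the control library (2.53-fold lower, 2.14 to 3.00). Zwilch, of the checkpoint complex at kinetochores, was at 19.9 in the MMP9_KO library and 10.9 in the control library. Cks2, a CDK subunit, was at 4.61 in the MMP9_KO library and 8.62 in the control library, and Ncapg2, of condensin II, at 77.3 in the MMP9_KO library and 45.5 in the control library.

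**Figure D3:**
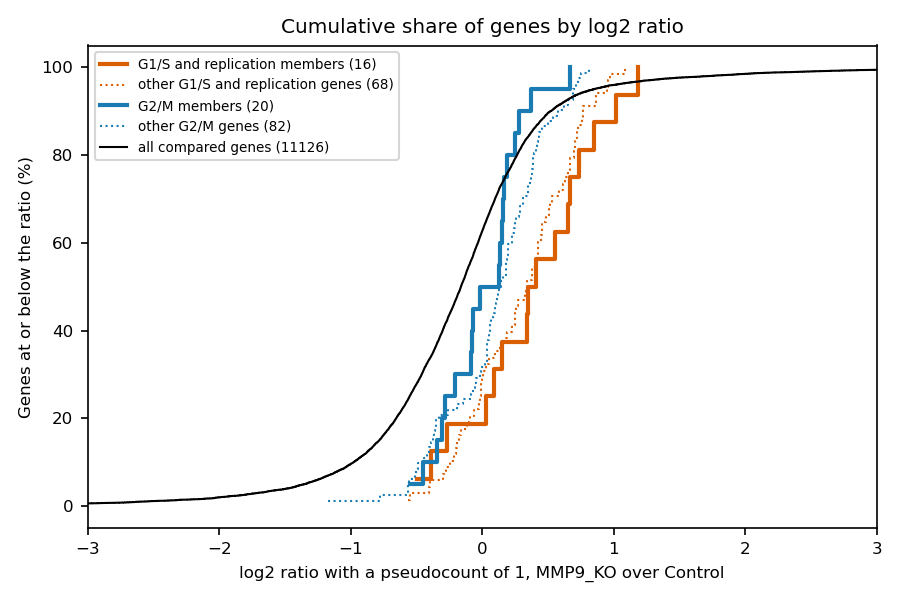
Cumulative share of genes, in percent, by log2 ratio with a pseudocount of 1, MMP9_KO over control. The curves of the 16 G1/S members and of 68 other G1/S and replication genes lie to the right of those of the 20 G2/M members and 82 other G2/M genes, and all lie to the right of the curve of 11126 compared genes at their medians (0.38, 0.33, 0.05, 0.13 and -0.16).

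Other G1 regulators and brakes showed no common direction. Among 26 compared genes 11 had a ratio above 0, 1 was at least 2-fold higher and 1 at least 2-fold lower, with a median of -0.19. Btg2, an antiproliferative gene induced by p53, was at 8.22 in the MMP9_KO library and 0.994 in the control library (8.27-fold higher, 5.95 to 11.8). Like Ccnd2, it passed the level filter through the MMP9_KO library. Ccng2, an atypical cyclin linked to cell cycle exit, was at 5.32 in the MMP9_KO library and 17.8 in the control library (3.35-fold lower, 2.88 to 3.91). Tob1, a relative of Btg2, was at 5.13 in the MMP9_KO library and 10.7 in the control library. Lin37, a MuvB subunit, was at 1.35 in the MMP9_KO library and 2.51 in the control library, on 57 reads in the MMP9_KO library and 101 in the control library.

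Clustered histone genes, whose transcription normally accompanies S phase, ran opposite to the replication genes. Of 12 compared, 9 were at least 2-fold lower and 0 higher, against 9.58% and 4% of all compared genes. Their median log2 ratio was -1.19, and the summed level over 23 genes found was 41.7 in the MMP9_KO library and 127.02 in the control library. The fewest reads of a compared histone gene in the MMP9_KO library were 11. That gene passed the level filter only through the control library, so its lower value was fixed by the filter. Hist2h3c1 was at 3.42 in the MMP9_KO library and 12.8 in the control library. Hist1h1c was at 9.41 in the MMP9_KO library and 30.8 in the control library. The H2B genes among the named ones were lower to a like extent, with Hist2h2be at 5.80 in the MMP9_KO library and 17.2 in the control library, and Hist1h2bc at 6.15 in the MMP9_KO library and 18.1 in the control library. Most histone messages of S phase end in a stem-loop instead of poly(A), while polyadenylated RNA was used for sequencing. The histone values here therefore cannot be read as a measure of S phase. Many copies of these genes are nearly identical, and reads could be divided among them.

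Transcript composition moved with the ratios. Over 10707 compared genes with a matched transcript, Spearman rho between log2 ratio and GC content was -0.31, and within the 16 G1/S and 20 G2/M members rho was -0.31 and -0.47. These are descriptions across genes of the same 2 libraries. The 3 G1/S genes below 0, Cdt1, Tk1 and E2f1, had a median GC content of 57.8%, against 47.3% for the 13 above 0. The 10 G2/M genes below 0 had a median of 48.2% and the 10 above 0 a median of 45.97%. Median GC content was 50.5% for the G1/S group, 47.8% for the G2/M group and 49.5% for all compared genes. Centred in 20 bins of GC content, the group medians were 0.48 and 0.13 and their difference was 0.35, as against 0.32 without centring. The log2 ratio of Cdt1 was then -0.06 and that of Plk1 -0.07, and that of Ccnb2 was -0.43. The part of composition in single values was not tested further.

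**Figure D4:**
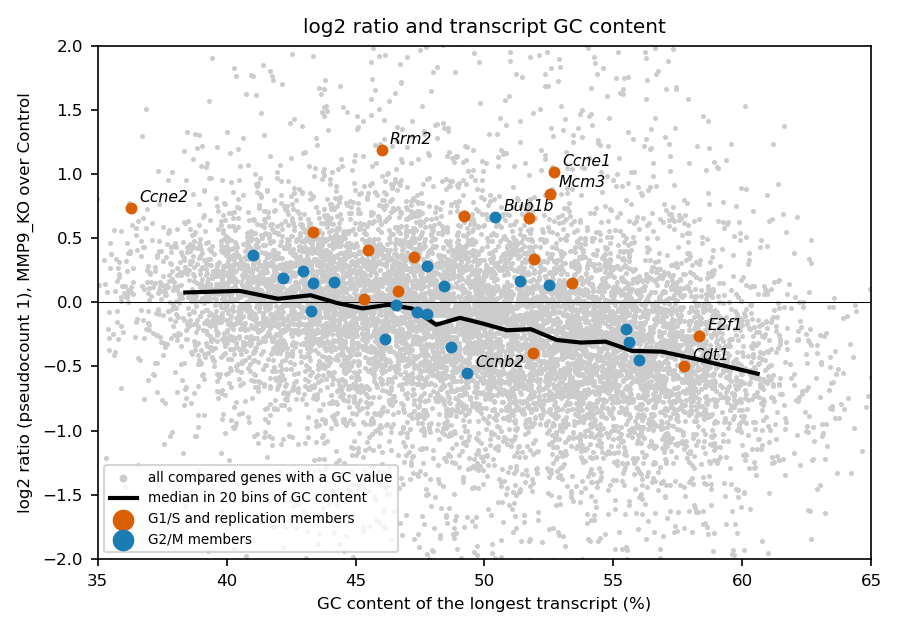
log2 ratio with a pseudocount of 1, MMP9_KO over control, against GC content of the longest transcript in percent, for compared genes (grey), the 16 G1/S members and the 20 G2/M members; the line joins medians in 20 bins of GC content. Ratios outside -2 to 2 and GC contents outside the axis are not drawn. Rrm2, Ccne1, Mcm3 and Bub1b lie well above the line, Ccnb2 below it, and Cdt1 near it.

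Levels per kilobase were compared between members within a library, with GENCODE M21 transcript lengths. Pcna and Stmn1 were the most abundant in both libraries, at 75.8 and 49.7 in the MMP9_KO library and 74.2 and 43.2 in the control library. Rrm2 was the 4th of 43 in the MMP9_KO library and the 16th in the control library, and Mcm3 was the 10th in the MMP9_KO library and the 19th in the control library. Cdt1 was the 17th in the MMP9_KO library and the 7th in the control library, and Ccnb2 was the 16th in the MMP9_KO library and the 6th in the control library. These orders hold for the longest annotated transcript only. In that annotation 12 members share exon bases with a gene on the opposite strand, among them Kif20a, Ccnd1, Ube2c and Ccne2, and the sources used here do not say whether reads were counted by strand. Kif20a shares 29.3% of its exon bases with Cdc23, Ccnd1 23.4% with LTO1, Ube2c 22.8% with Tnnc2 and Ccne2 17.4% with Ints8. In the MMP9_KO library Cdc23, LTO1, Tnnc2 and Ints8 were at 28.6, 56.0, 0.0238 and 36.2. In the control library they were at 27.1, 41.1, 0.0497 and 29.0. Ints8 was thus above Ccne2 in both libraries, and the part of such neighbours in the member values was not tested. A further limit is that 6 members, Ccnd3, Pcna, Tyms, Ccnb1, Ccnb2 and Stmn1, have a named copy in the genome that could share reads.

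**Figure D5:**
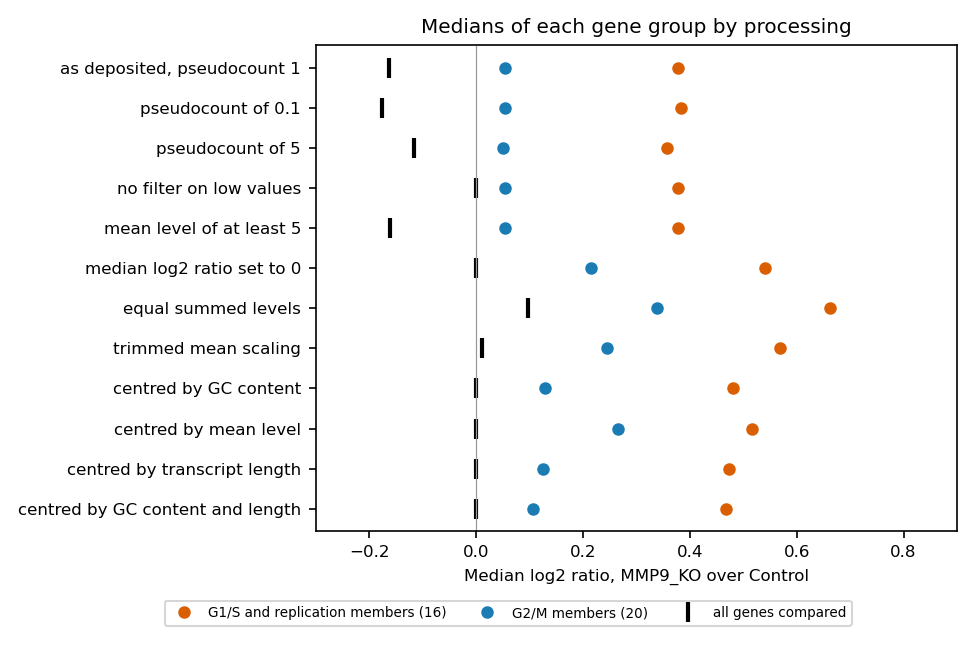
Median log2 ratio, MMP9_KO over control, of the 16 G1/S members, the 20 G2/M members and all compared genes under the deposited scaling and 11 alternatives, each on its own line. The G1/S median lies to the right of the G2/M median on every line, by 0.25 to 0.36, and both lie to the right of the median of all genes.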

How the data were processed

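RNA of RANKL-treated mouse bone marrow cultures was sequenced as 1 MMP9_KO and 1 control library. TopHat aligned the reads to the mouse build mm9, per the submitters' processing notes. Its version, the counting program, the annotation and the strand setting were not given in the sources used here. For 26037 genes the authors deposited log2 values, titled as normalised RPKM. After conversion they were whole multiples of a step of 0.0238 (MMP9_KO) and 0.0248 (control), the same for every gene, with at least 99.99% of values within 0.05 of a whole read. They were therefore not divided by gene length. Genes with no read, deposited at 0.9 of the step, were set to 0.

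Ratios used a pseudocount of 1, which understates differences of low genes, and genes with a mean level of at least 1. Exact 95% intervals came from read numbers (Python 3.11.15, scipy 1.17.1) and cover counting error only. The calculations were tested on simulated data. GENCODE M21 gave GC content and length, by Ensembl identifier, of 10707 of 11126 compared genes and all 43 members. RefSeq promoters and GENCODE are on GRCm38, another build than that of the table, and were joined by name or identifier only. Each member found was described, and from each other list the 4 genes with the largest difference and those past 2-fold, where 6 or fewer. The members, the lists and the tests were chosen with earlier results of these data known. Alternatives were other pseudocounts, filters and scalings, and centring by GC content, level or length.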

Additional observations from a re-analysis of the deposited data

How the results depend on the processing

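No paired analysis was possible because each genotype had a single library, and leaving a library out was likewise impossible. Centring by length, alone or after GC content, was chosen after seeing the data. The difference between the G1/S and G2/M medians was also added then, with its alternatives, most of them settings already planned for the medians themselves. That difference, 0.32, lay between 0.25 and 0.36. The medians of all members, G1/S members, G2/M members, other G1/S genes and other G2/M genes became, in that order, 0.32, 0.54, 0.22, 0.50 and 0.30 with the median of all genes set to 0; 0.44, 0.66, 0.34, 0.60 and 0.40 with equal summed levels; 0.35, 0.57, 0.24, 0.51 and 0.31 with a trimmed mean; and 0.35, 0.52, 0.27, 0.51 and 0.30 after centring by mean level. A scaling adds nearly the same number to every gene, by construction. After centring by length the medians of all members, G1/S members, other G1/S genes and other G2/M genes were 0.31, 0.47, 0.49 and 0.28. By GC content those of all members and G1/S members were 0.28 and 0.48, and by GC content and length that of G1/S members was 0.47. With equal summed levels 5 members were at least 2-fold higher, Mcm3 and Ccne2 being added, and Mcm3 was also past 2-fold with the median of all genes at 0 (1.01), with a trimmed mean (1.04) and after centring by mean level (1.03) or GC content, without (1.14) or with length (1.09). With equal sums 674 of all genes were higher and 684 lower, against 445 and 1066 as deposited. Of all genes past 2-fold, 29.5% were higher as deposited, 41.6% with the median at 0 and 49.6% with equal sums. With a pseudocount of 5, by construction a stronger shrinkage of low genes, counts were 255 higher and 603 lower, and Ccne1 was then within 2-fold. After centring by GC content, without and with length, 682 and 678 were lower. No member was at least 2-fold lower under these alternatives. Of 473 alternative values of members, 227 stayed inside the interval for counting error and 246 left it. The filters removed no member and left every member value unchanged, so those values lay inside by construction. Signs stayed the same for 36 members and differed for 7. Neither the filters nor the pseudocounts could change a sign, so only the other alternatives bear on this count.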

Other observations

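The step of each library gives what 1 read is worth. If that step stood for 1 read per 1000000, the totals divided by would be 42096390 reads in the MMP9_KO library and 40245225 in the control library, and the reads in genes would make up 42.1% of them in the MMP9_KO library and 51.4% in the control library. Which total the authors used is not known.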
